A study of Mus musculus with 2 samples.

Results

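The genes described here are 10 genes for WNT ligands, Wnt3, Wnt3a, Wnt4, Wnt5a, Wnt6, Wnt7a, Wnt9b, Wnt10a, Wnt10b and Wnt11, out of 21896 protein-coding genes in the RefSeq annotation of GRCm38.p6. They were taken by name, and their contacts were taken by position. A contact belonged to a gene when 1 of its 5 kb anchor bins lay within 10 kb of either annotated end of that gene. Contacts came from Hi-C, a method that ligates and sequences DNA ends held close together in fixed nuclei. There were 2 libraries of sorted hair matrix keratinocytes, epithelial cells of the follicle bulb that divide and give rise to the hair, from mice at postnatal day 4.5. The first came from wild-type mice (WT) and the second from mice with the genotype Tet2/Tet3 DKO, Krt14-Cre (here DKO), in which the Cre is driven by the promoter of a basal keratin gene. Tet2 and Tet3 encode dioxygenases that oxidise 5-methylcytosine. The labels do not say how many mice were pooled. Contacts do not measure transcripts, so neither the cell type nor the deletion could be checked with marker genes.

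WNT ligands are secreted, lipid-modified proteins that bind Frizzled receptors. With the co-receptors LRP5 and LRP6 they stabilise beta-catenin, which then acts on TCF/LEF target genes, while ligands such as WNT5A and WNT11 are best known for routes that do not need beta-catenin. In the hair follicle, WNT signalling starts follicle formation and later drives precursors of the hair shaft out of the matrix. Chromatin loops bring distant DNA together, often between sites bound by CTCF at which cohesin stops.

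Anchor bins held an annotated end of 4 of the 10 genes, Wnt3, Wnt3a, Wnt7a and Wnt11, and their promoters are shown for that reason. Each sequence is the 250 bases before an annotated start, written 5′ to 3′ on the strand of the gene, from the RefSeq promoter table of GRCm38.p6. Capitals mark every match on either strand of the string CCCTC, the TCF/LEF string ATCAAAG and the GC box GGGCGG, and matches may overlap or touch.
Wnt3, chr11:103773925-103774174, plus strand: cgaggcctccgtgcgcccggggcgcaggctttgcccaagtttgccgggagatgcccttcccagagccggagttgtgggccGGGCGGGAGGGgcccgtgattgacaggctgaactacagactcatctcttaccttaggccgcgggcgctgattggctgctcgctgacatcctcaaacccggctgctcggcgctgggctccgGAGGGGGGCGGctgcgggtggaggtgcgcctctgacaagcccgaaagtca
Wnt3a, chr11:59290752-59291001, minus strand: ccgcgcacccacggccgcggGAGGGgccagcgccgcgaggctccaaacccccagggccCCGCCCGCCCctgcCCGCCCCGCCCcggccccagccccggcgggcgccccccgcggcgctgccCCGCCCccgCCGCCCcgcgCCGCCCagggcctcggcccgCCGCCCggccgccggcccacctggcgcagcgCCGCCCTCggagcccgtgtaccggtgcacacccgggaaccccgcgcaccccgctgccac
Wnt7a, chr6:91411354-91411603, minus strand: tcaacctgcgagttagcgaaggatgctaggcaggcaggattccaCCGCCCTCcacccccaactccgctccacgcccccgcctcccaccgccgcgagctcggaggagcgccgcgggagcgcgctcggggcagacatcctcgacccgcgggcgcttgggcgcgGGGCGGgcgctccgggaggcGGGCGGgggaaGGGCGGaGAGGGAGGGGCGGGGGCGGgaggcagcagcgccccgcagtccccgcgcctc
Wnt11, chr7:98834862-98835111, plus strand: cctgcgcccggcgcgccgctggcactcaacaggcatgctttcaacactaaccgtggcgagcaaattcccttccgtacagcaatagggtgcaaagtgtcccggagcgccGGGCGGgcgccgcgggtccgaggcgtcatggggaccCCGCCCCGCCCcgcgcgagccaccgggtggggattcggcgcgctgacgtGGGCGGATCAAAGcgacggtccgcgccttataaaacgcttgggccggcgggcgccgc
Of 32851 promoters of this length, 60.5% held the string CCCTC, 32.7% the GC box and 3.21% the TCF/LEF string. The Wnt3a promoter had 9 GC boxes and 2 CCCTC strings, that of Wnt7a had 6 and 3, and that of Wnt3 had 2 and 2. The Wnt11 promoter shown, that of its first start, had 4 GC boxes and no CCCTC string. It held the only TCF/LEF string among the 9 promoter entries of 8 members. A match is a string of letters and not a bound site. Wnt11 has a further annotated start at 98838845 in the same anchor bin. The promoter of that start, not shown, had 1 CCCTC string and no GC box. Wnt5a and Wnt10a have no entry in the promoter table.

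These promoters were rich in CpG, the dinucleotide in which TET enzymes oxidise methylated cytosine. Promoters of protein-coding genes had a median of 10 CpG in 250 bases (quartiles 3 and 19, 21262 promoters). Wnt4 had 44, more than 99.3% of them, although none of its ends lay inside an anchor bin. Wnt3a had 41, the first start of Wnt11 had 37, Wnt7a had 34 and Wnt6 had 28. Wnt3 and Wnt9b had 22 each, the further start of Wnt11 had 16, and Wnt10b had 14, more than 60.5% of protein-coding promoters. Of the genes without contacts by the rule, only Wnt6 and Wnt10b had a promoter entry. Wnt6 lay among the genes with contacts in this count, and Wnt10b lay below them.

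**Figure D1:**
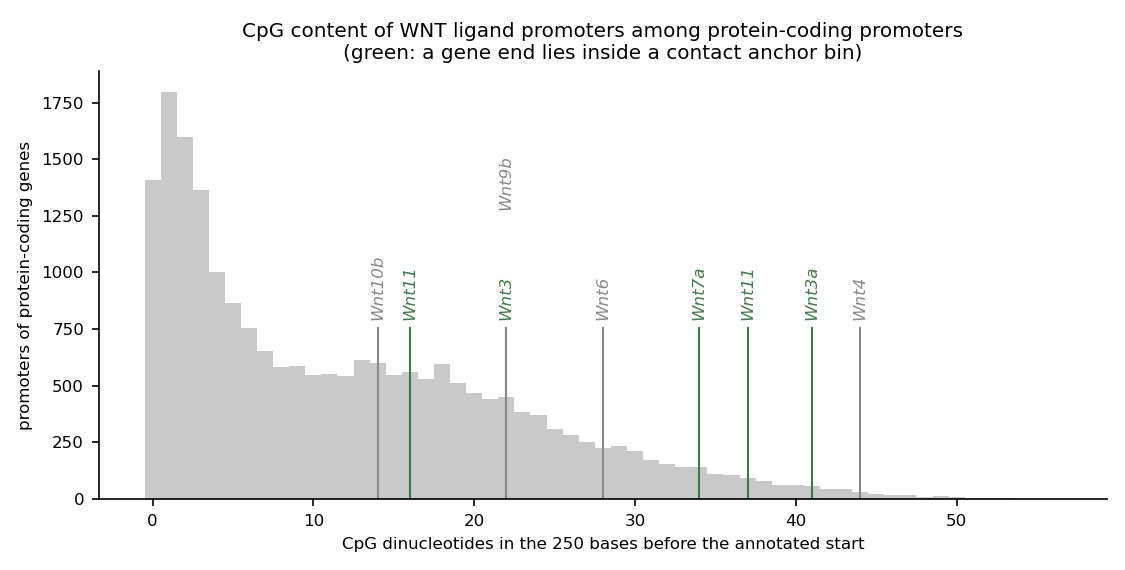
CpG dinucleotides in the 250 bases before the annotated start (x axis) against the number of protein-coding promoters (grey bars, y axis), with each WNT ligand promoter as a vertical line; green lines mark genes with an end inside a contact anchor bin. The lines run from 14 for Wnt10b to 44 for Wnt4, all above the median of 10, and green and grey lines are interleaved.

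The deposited lists hold enriched pixels, each a pair of 5 kb bins with more contacts than 4 neighbourhoods around it. They held 5811 pixels in WT and 4872 in DKO, which were joined into 2902 and 2641 loops. Expected counts at the 1940 pixels listed in both put the DKO depth at 0.973 of WT. Each genotype had 1 library, so no difference has a replicate check and none can be assigned to the genotype. Ranges in brackets after an enrichment are exact Poisson limits at 95%, and those after a ratio are exact conditional binomial limits. They cover counting error only and take expected counts as fixed. A list names no pixel that missed the threshold, so a missing contact is one that was not called.

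Contacts were called at 7 of the 10 ligand genes in WT and at 6 in DKO. Over all protein-coding genes the shares were 21.1% and 20.1%. Wnt3, Wnt3a, Wnt4, Wnt7a, Wnt9b and Wnt11 had contacts in both lists, against 12.9% of all genes. Wnt10a had contacts in WT alone (8.23% of all genes), and no member had them in DKO alone (7.13%). Wnt5a, Wnt6 and Wnt10b had none in either list, as did 71.7% of all genes. The genes are not independent, because Wnt3 and Wnt9b overlap each other and shared pixels, so the contacts lay at 6 loci in WT and 5 in DKO. The genes were also named with earlier results of these lists known, so the counts describe them and support nothing further.

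The contacts comprised 21 distinct pixels in WT, with 14 to 45 observed contacts each, and 16 in DKO, with 15 to 31. They formed 9 WT loops and 7 DKO loops. All 7 DKO loops and 8 of the 9 WT loops had a counterpart within 2 bins in the other list, against 55.0% of all DKO loops and 50.1% of all WT loops. Where the same pixel had to be listed, the shares fell to 71.4% of the DKO and 55.6% of the WT loops at ligand genes, against 40.1% and 36.5% of all loops. A loop matched if any of its pixels did, so loops of several pixels had more ways to match. Single-pixel loops made up 3 of the 7 DKO and 4 of the 9 WT loops at ligand genes, against 63.5% and 58.4% of all loops. Spans ran from 35 to 230 kb in WT with a median of 125 kb, and from 65 to 235 kb in DKO with a median of 130 kb. The medians over all loops were 115 and 100 kb. Enrichment, the observed count divided by the count expected from the donut-shaped surroundings, had a median of 5.19 over the WT loops and 5.34 over the DKO loops. Over all loops it was 5.39 and 5.12. Single loops at ligand genes were spread widely around these medians, with from 1.1% to 97.9% of all WT loops and from 18.3% to 84.0% of all DKO loops below them. The longest DKO span and the DKO median enrichment came from the longer Wnt4 loop, whose highest DKO pixel lay 500 bp outside the window. Its DKO pixel inside the window spanned 230 kb at 4.77 times expected. The highest DKO pixel of the loop to the right of Wnt3a also lay outside the window. Over only the pixels that met the rule, median enrichment was 5.88 in WT and 4.97 in DKO, against 5.11 and 4.95 over all listed pixels.

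**Figure D2:**
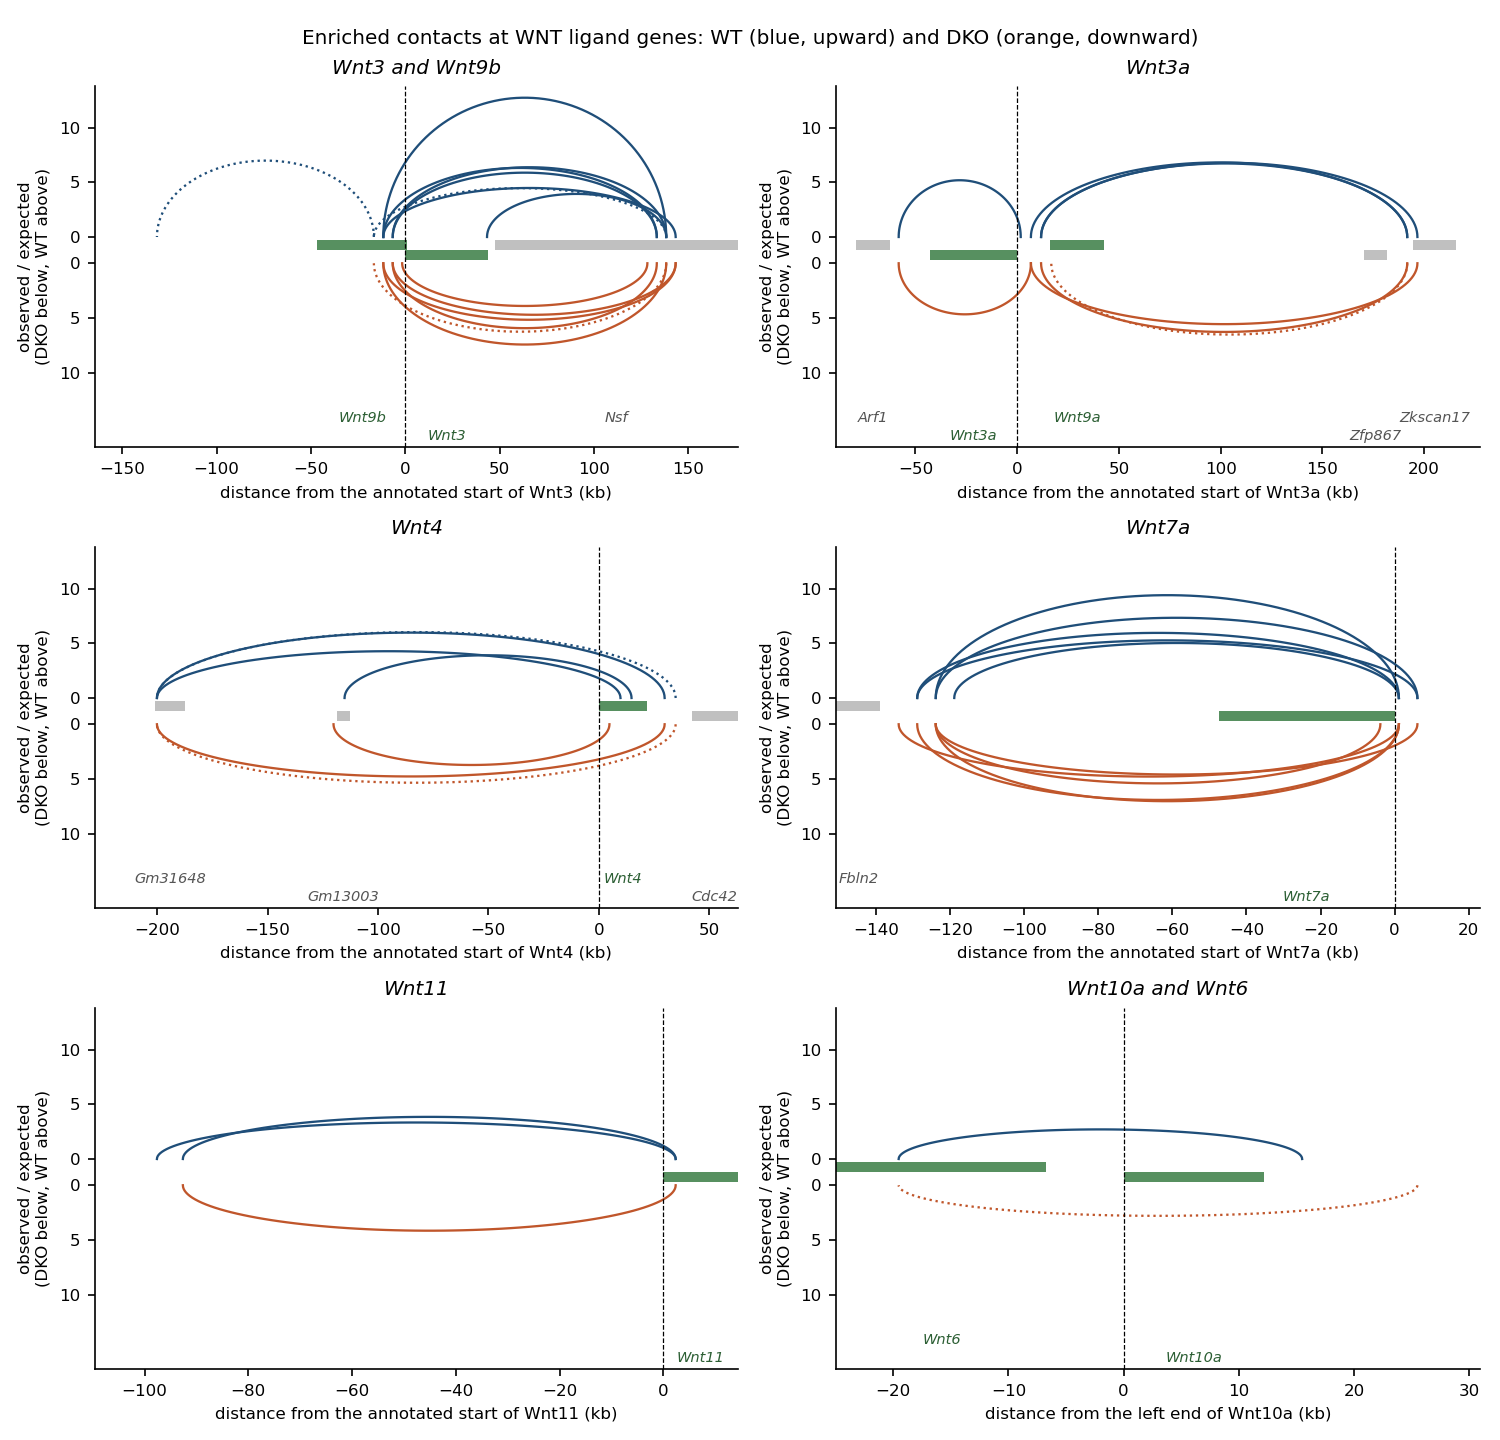
Contacts at 6 loci, with distance from an annotated start or gene end on the x axis (kb) and enrichment (observed over donut expected) as the height of each arc, WT upward in blue and DKO downward in orange. Green boxes are WNT ligand genes, grey boxes are other genes, solid arcs meet the 10 kb rule and dotted arcs lie just outside it; most WT arcs have a DKO arc at or next to the same place, and the tallest arc is the WT contact of Wnt3 at 12.7.

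Wnt3, a ligand made in precursors of the hair shaft, lies on the plus strand of chromosome 11 (103774175 to 103818021). Its contacts ran from just before the gene, across all of it, into the body of Nsf (103821782 to 103954056), which encodes an ATPase of membrane fusion. The highest pixel was the same in both libraries and joined the bin 103760001 to 103765000 with 103910001 to 103915000 over 150 kb. It had 45 observed contacts in WT, 12.7 times expected (9.28 to 17.0), and 31 in DKO, 7.43 times expected (5.05 to 10.5). In WT 97.9% of loops had lower enrichment, and in DKO 84.0%. This anchor lies 9175 bp before the annotated start of Wnt3 and inside the annotated span of Wnt9b. The partner bin is separated from the nearer end of Nsf by 39056 bp.

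Around that pixel the lists named 4 further WT and 4 further DKO pixels of the same loop at Wnt3, from 14 to 21 contacts in WT and from 15 to 20 in DKO. The DKO list held a pixel from the bin with the Wnt3 start itself (103770001 to 103775000) to 103900001, with 17 contacts at 3.90 times expected (2.27 to 6.25) and an FDR of up to 0.0826. WT had no pixel called in that bin. Another WT pixel joined the other end of Wnt3 (103815001 to 103820000) to the same part of Nsf over 95 kb, with 16 contacts at 3.94 (2.25 to 6.40). That anchor is also within 10 kb of an end of Nsf, so the pixel can equally be read as a contact inside Nsf. It was the only loop at a ligand gene without a counterpart.

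The Nsf bin at 103910001 had 1 more long partner in WT, a bin starting at 103635001 within 10 kb of ends of Lyzl6 and Rprml, over 275 kb with 11 contacts at 7.69 times expected (3.84 to 13.8). A WT pixel also joined 103640001 with 103755001, the bin next to the Wnt3 anchor, with 14 contacts at 6.98 (3.82 to 11.7). Neither was called in DKO, and both rest on few contacts. The bin 103755001, which is 4175 bp outside the window of Wnt3, also met the Nsf bin at 103910001, with 14 contacts in WT (4.47 times expected, 2.44 to 7.49) and 21 in DKO (6.25, 3.87 to 9.56). With that pixel the whole loop held 130 listed contacts in WT and 123 in DKO, 6 pixels in each.

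Wnt9b, a ligand known from kidney and palate development, lies on the opposite strand (103727362 to 103775272), and its annotated span overlaps the first bases of Wnt3. It was at 2 WT pixels and 3 DKO pixels, all of which were Wnt3 pixels as well. They had 17 and 19 contacts in WT (5.88 and 6.38 times expected) and 20, 15 and 17 in DKO (5.93, 4.71 and 3.90). The start of Wnt9b in the promoter table, 103749821, lay 15180 bp or more from each of these anchors. The bins 103755001 and 103760001 of the same loop lay nearer to that start, but outside the windows around the ends of Wnt9b. All these bins lie inside the annotated span of Wnt9b, so the loop can equally be read as a contact from within Wnt9b. The strongest Wnt3 pixel missed the window of Wnt9b by 272 bp. No pixel reached the other end of Wnt9b in either list.

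Wnt3a, a ligand of the beta-catenin route, lies on the minus strand of the same chromosome (59248036 to 59290751), next to Wnt9a (59306849 to 59333552). Contacts left the region around its start in both directions. To the left, a pixel spanning 60 kb (WT) or 65 kb (DKO) closed around the whole gene and ended 1734 bp from Arf1, which encodes a small GTPase of the Golgi. It had 23 contacts in WT, 5.19 times expected (3.29 to 7.78), and 19 in DKO, 4.67 times expected (2.81 to 7.29). The WT anchor (59290001 to 59295000) holds the start of Wnt3a, and the DKO anchor is the next bin, 4250 bp upstream. That DKO anchor is also within 10 kb of an end of Wnt9a. To the right, contacts of 180 to 190 kb ran past Wnt9a to bins within 520 bp of Zkscan17, and near the end of Zfp867, both zinc finger genes. Their near anchors lay 4250 and 9250 bp upstream of the Wnt3a start and were also within 10 kb of an end of Wnt9a. The bin at 9250 bp is nearer to Wnt9a, so these contacts can equally be read as those of Wnt9a. In WT they had 25, 26 and 19 contacts at 6.81, 6.72 and 6.78 times expected, and in DKO 16 and 21 contacts at 5.56 and 6.28. A further DKO pixel, from 59305001 to 59480001, had the most contacts of that loop, 23 at 6.52 times expected (4.13 to 9.78), and reached Wnt9a but not the window of Wnt3a. Wnt9a was the only ligand gene outside the 10 to share pixels with one of them.

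Wnt7a, a ligand of limb and reproductive tract patterning, lies on the minus strand of chromosome 6 (91363981 to 91411353). Its start lay in an anchor bin (91410001 to 91415000) in both libraries. That bin also holds the lncRNA gene Gm30437 (91411328 to 91412716). The contacts of Wnt7a ran across it to bins from 91275001 to 91295000. The pixels nearest to a gene there ended 2461 bp (DKO) and 7461 bp (both lists) from Fbln2, which encodes the matrix protein fibulin 2. The DKO pixel at 2461 bp had 15 contacts and an FDR of up to 0.0869. Each list had 5 pixels. In WT they had 16 to 29 contacts, and the pixel with most contacts, from 91285001, stood at 9.40 times expected (6.29 to 13.5). In DKO they had 15 to 24, and the pixel with most, from 91280001, stood at 6.92 (4.43 to 10.3). At 91285001 DKO had 23 contacts at 7.03 (4.46 to 10.5), so the libraries peaked in neighbouring bins with overlapping intervals. The region from 91270001 to 91285000 was an anchor in the other direction too, with 6 WT pixels and 3 DKO pixels to bins within 10 kb of an end of Hdac11, a histone deacetylase gene. They stood between 4.85 and 7.22 times expected in WT and between 4.57 and 5.31 in DKO.

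Wnt10a and Wnt6 lie side by side on chromosome 1, Wnt6 at 74754342 to 74785322 and Wnt10a at 74792019 to 74804176. Wnt10a is linked to hair and tooth development. The WT list had 1 pixel at Wnt10a, over 35 kb from 74805001 to a bin (74770001 to 74775000) inside the gene body of Wnt6. That bin also holds the Wnt6 start of the promoter table, 74771892. The pixel had 27 contacts on an expected count of 9.98, an enrichment of 2.70 (1.78 to 3.94), and 1.1% of WT loops were lower. DKO had the same Wnt6 bin joined to 74815001 over 45 kb, with 28 contacts on 10.0 expected, 2.79 times (1.86 to 4.04). That anchor missed the window of Wnt10a by 825 bp, so the listing of Wnt10a in WT alone is a matter of 2 bins. Wnt6 had no contact by the rule because the Wnt6 bin lay 322 bp beyond the window around its ends, and with a window of 20 kb both genes had contacts in both lists.

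Wnt10b (chromosome 15, 98770712 to 98778206), a ligand expressed in hair placodes and matrix, had no contact within 10 kb in either list. A WT pixel from 98660001 to 98800001 (16 contacts, 4.31 times expected, 2.46 to 7.00) enclosed it and had its nearer anchor 21795 bp away, at the neighbouring ligand gene Wnt1. In DKO the nearest anchor lay 111795 bp away.

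Wnt4, a ligand of kidney and female tract development, lies on the plus strand of chromosome 4 (137277635 to 137299501). Its contacts led upstream into a stretch of 2 lncRNA genes with no protein-coding gene end within 10 kb. The longer loop joined 137075001, at the lncRNA gene Gm31648, with 137305001, between Wnt4 and Cdc42, and closed around Wnt4. This pixel had 22 contacts in WT, 5.98 times expected (3.75 to 9.05), and 17 in DKO, 4.77 times expected (2.78 to 7.64). The next bin, 137310001, 500 bp outside the window, had 20 contacts in each library. Both bins are also within 10 kb of an end of Cdc42, so these contacts can equally be read as those of Cdc42. A WT pixel from the same upstream bin to 137285001, inside Wnt4, had 19 contacts at 4.27 (2.57 to 6.68) and an FDR of up to 0.082. The shorter loop led from Wnt4 to the lncRNA gene Gm13003 and spanned 130 kb (WT) or 125 kb (DKO). It had 17 contacts in each, at 3.90 (2.27 to 6.25) and 3.72 (2.17 to 5.96). It was a single pixel in each list, with an FDR of up to 0.0722 in WT and 0.0826 in DKO, near the limit of 0.1. Its DKO anchor was 2366 bp from the start of Wnt4 and its WT anchor 12366 bp. The nearest protein-coding gene to either partner was Zbtb40, a zinc finger gene, 26181 bp from the farther one.

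Wnt11, a ligand of cell movement and of ureteric branching, lies on the plus strand of chromosome 7 (98835084 to 98854747). Both of its annotated starts lay in the anchor bin 98835001 to 98840000. From there 1 pixel in both lists led 95 kb upstream to 98740001, where no protein-coding gene end lay within 10 kb. The nearest was that of Thap12, 21939 bp away. This pixel had 21 contacts in WT, 3.85 times expected (2.38 to 5.89), and 19 in DKO, 4.15 times expected (2.50 to 6.48). A neighbouring WT pixel had 17 contacts at 3.34 (1.94 to 5.34) and an FDR of up to 0.0722. The WT list also joined the upstream bin with 99060001 over 320 kb, past Wnt11, with 14 contacts at 5.36 times expected (2.93 to 9.0).

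Wnt5a (chromosome 14, 28504543 to 28527448), a ligand of the routes without beta-catenin, stood apart. The nearest anchor in either list was 1084543 bp away in WT and 1089543 bp in DKO, beyond the neighbouring gene Erc2, and no pixel enclosed Wnt5a. Of the members without a contact, Wnt6 was thus a near miss and Wnt5a was far from any anchor.

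**Figure D3:**
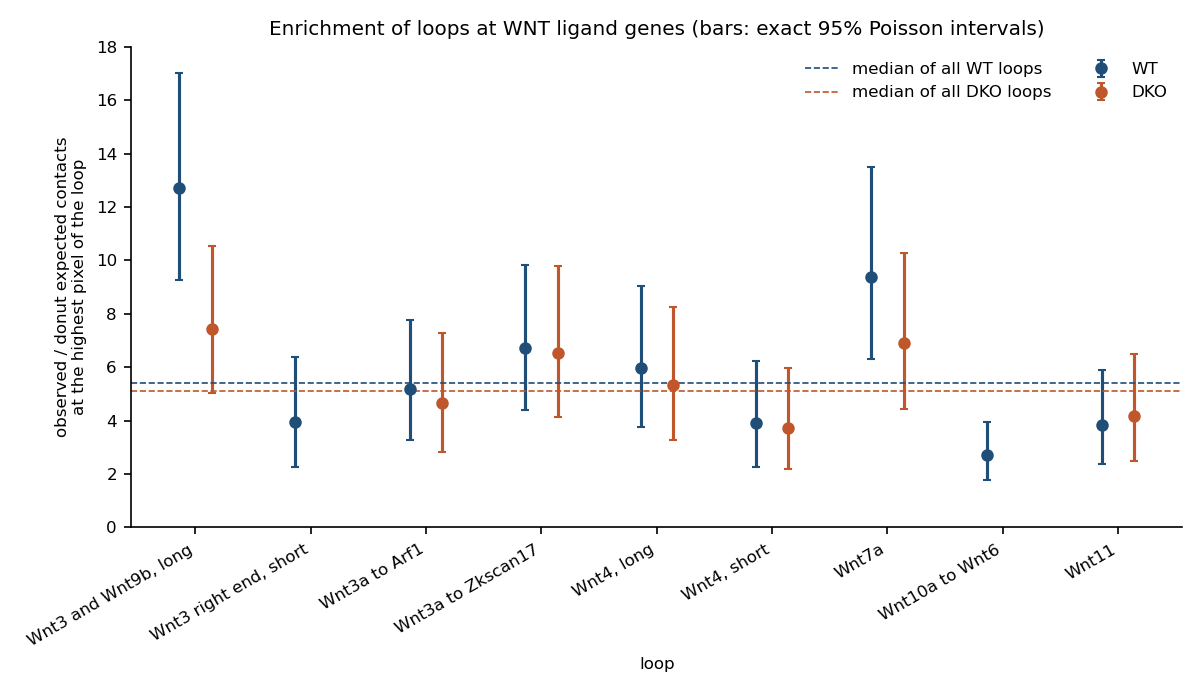
Enrichment at the highest pixel of each loop (y axis, observed over donut expected contacts) for the loops at ligand genes (x axis), WT in blue and DKO in orange, with exact 95% Poisson intervals and dashed lines at the medians of all loops, 5.39 and 5.12. The long Wnt3 loop and the Wnt7a loop are the 2 highest in WT, at 12.7 and 9.40, and the Wnt10a loop is the lowest at 2.70. In DKO the highest pixels of the long Wnt4 loop and of the Wnt3a loop to Zkscan17 lie outside the 10 kb windows.

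A whole member lay between the anchors of 5 of the 9 WT loops and 4 of the 7 DKO loops: Wnt3, Wnt3a, Wnt4 and Wnt7a in both lists and Wnt10a in WT. At Wnt3, Wnt3a and Wnt7a the anchor near the gene lay at the start or upstream of it, whereas at Wnt4 it lay beyond the far end. Wnt11 was outside its loop. A start from the promoter table lay in an anchor bin for Wnt3a, Wnt7a and Wnt11 in WT and for Wnt3, Wnt7a and Wnt11 in DKO, counting contacts by the rule. The Wnt6 start lay in an anchor bin in both lists, as the partner of Wnt10a in WT and of the bin just outside its window in DKO. The partner bin was within 10 kb of an annotated end of another protein-coding gene at 6 of 21 WT pixels (28.6%) and 5 of 16 DKO pixels (31.2%), those of Wnt3a and Wnt7a. This count leaves out the Wnt10a pixel, whose partner holds a start of Wnt6 but neither end of its annotated span. Among all pixels with an anchor at a gene end, both anchors were at gene ends in 45.7% of WT and 47.5% of DKO pixels. Neighbouring pixels of 1 loop are not independent, so this gap was not tested. The shares are also not drawn alike. A pixel with both anchors at gene ends can be reached from either gene, but counted once among all pixels.

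At ligand genes 9 pixels were listed at exactly the same place in both libraries. They held 219 contacts in WT and 189 in DKO, on expected counts of 32.5 and 32.7, so pooled enrichment was 6.74 and 5.78. The DKO/WT ratio of enrichment was 0.857 (0.701 to 1.05), and its interval included 1. It was below 1 at 5 pixels and above 1 at 4, against 52.8% below 1 among all 1940 pixels in both lists. The interval left out 1 only at the highest Wnt3 pixel, with a ratio of 0.584 (0.357 to 0.943). Such intervals left out 1 at 1.6% of all pixels in both lists, without adjustment for their number. The other Wnt3 pixels in both lists had ratios of 1.15 (0.548 to 2.49) and 1.01 (0.502 to 2.05). Over its 3 pixels Wnt3 had 76 WT and 70 DKO contacts and a ratio of 0.784 (0.558 to 1.1), so the lower value was that of a single pixel.

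The 3 Wnt7a pixels had 74 WT and 62 DKO contacts and a joint ratio of 0.831 (0.583 to 1.18). Ratios were 0.934 (0.5 to 1.73) at Wnt3a, 0.798 (0.398 to 1.57) at Wnt4 and 1.08 (0.548 to 2.11) at Wnt11. At 14 to 45 contacts per pixel these intervals were wide, as at the third Wnt7a pixel, with a ratio of 0.627 (0.304 to 1.25). Pixels enter this comparison only where both libraries passed the threshold, which leaves out the places where a contact was called once.

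**Figure D4:**
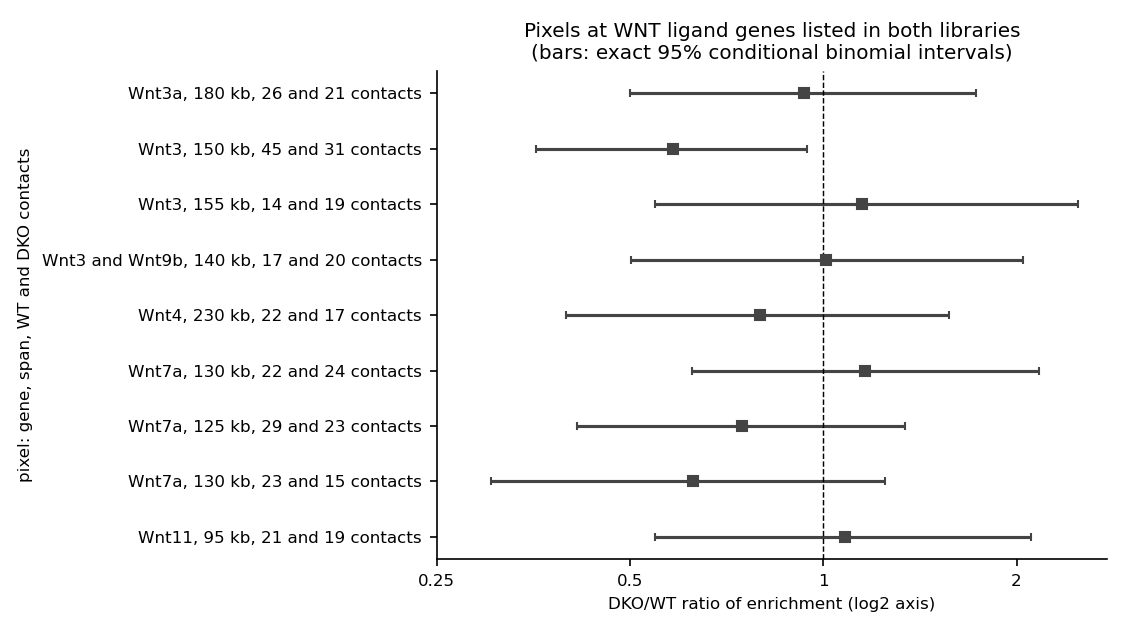
DKO/WT ratio of enrichment (x axis, log2 scale) at the 9 pixels at ligand genes listed in both libraries (y axis, with gene, span and the WT and DKO contact counts), with exact 95% conditional binomial intervals. The points lie between 0.584 and 1.16, and 8 of the 9 intervals cross 1.

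Contacts were also counted at 62 other genes of the WNT pathway. Of these, 21 had contacts in at least 1 list (33.9%, against 28.3% of all protein-coding genes). Both lists held contacts for 12 of the 62, where the share over all genes was 12.9%. Only the WT list held contacts for 5 genes (all genes 8.23%), and only the DKO list for 4 (all genes 7.13%). These counts were not tested against the shares over all genes. Of the 9 other ligand genes 5 had contacts, led by Wnt7b with 8 WT and 4 DKO pixels, Wnt9a with 3 and 4, and Wnt8a with 2 in each. Of 15 receptors and co-receptors 4 had contacts, led by Ror2, a receptor for WNT5A, with 8 and 5 pixels, and Ror1 with 1 in each; the Frizzled genes Fzd2 and Fzd9 had 1 in DKO. Of 9 genes that enhance or limit signalling at the receptor 4 had contacts, led by Lgr6 with 6 and 4 and Lgr4 with 2 and 3, both receptors for R-spondins, and Znrf3, a ubiquitin ligase that removes Frizzled, with 1 and 2. Of 14 cytoplasmic and nuclear effectors 7 had contacts, led by Tcf7l1 with 4 and 1 and Tcf7 with 3 and 1, which encode TCF factors, and Axin2 and Nkd1, feedback inhibitors of the route, with 1 in each. Of 12 secreted or membrane inhibitors 1 had a contact, Dkk1 in DKO, and none of the 3 genes for ligand modification and secretion did (Porcn, Wls and Notum). For the ligands described above the share was 70.0%, with genes that were chosen by name and partly share their contacts.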

How the data were processed

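The authors made their lists with juicer_tools 1.22.01, per the file headers. The submitters' processing notes name Juicer and GRCm38 (mm10). Which aligner, read filters and depth applied is not given in the sources used here. For each pixel the authors deposited an observed contact count, 4 expected counts as a signal on the same scale, a bin score giving the class of each expected count, and 1 q-value (FDR) per neighbourhood, all under 0.1. Pixels were selected by the authors' calling, so weaker contacts are absent from the values.

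Gene ends were read from RefSeq's gene table for GRCm38.p6, and strand and starts from its promoter table, which had entries for 8 of the 10 genes. Coordinates are 1-based. Pixels with both anchors within 20 kb of each other formed 1 loop, represented by the pixel with most contacts, inside the window or not. Loops matched within 2 bins (10 kb). All 10 genes were named, with every protein-coding gene end within 10 kb of a partner bin or else the nearest, and of each pathway list up to 3 genes with most pixels (ties both named). Lyzl6, Rprml, Hdac11 and Erc2 were named after their values were seen. Members and lists were chosen with earlier results of these data known. No test was run, since each genotype had a single library. Calculations used Python 3.11.15, numpy 2.4.6, pandas 2.3.3 and scipy 1.17.1, and were tested on simulated data. Alternatives covered the window, the calling threshold, linkage, matching and the expected count.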

Additional observations from a re-analysis of the deposited data

How the results depend on the processing

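No paired analysis was possible because a single library stands for each genotype and nothing was tested. Leaving out a replicate was not run for that reason. Many of 252 recomputed counts, shares, medians and ratios could not change by construction. Linkage, matching, the expected count, the choice of span and scaling by depth do not enter the counts of members or pixels. Matching, span and scaling by depth do not enter the enrichment medians either. Changes of direction were not scored. Of the 252, 234 stayed within 1.5 times the reported count or, for shares, medians and the ratio, within its interval, and 18 moved. These bounds are wide: WT pixels fell from 21 to 14 with a window of 5 kb, and the WT share with a counterpart from 88.9% to 66.7% within 1 bin and 55.6% at the exact pixel (DKO 85.7% and 71.4%). With gene ends required inside the anchor bin, members with contacts fell from 7 to 4 in WT, from 6 to 3 in DKO and from 6 to 3 in both, pixels from 21 to 7 and from 16 to 5, and loops from 9 to 4 and from 7 to 3. At an FDR under 0.01 there were 12 WT and 8 DKO pixels in 5 and 4 loops, at Wnt3, Wnt3a, Wnt7a and Wnt9b in both lists and Wnt4 in WT alone. With at least 20 contacts there were 12 WT and 5 DKO pixels, 3 DKO loops and 3 members in both lists. Linkage at 50 kb gave every WT loop a counterpart (100%). Median WT enrichment was 3.66 with the vertical expected count and also with the highest of the 4. Fewer pixels passed the stricter settings by construction. With a window of 5 kb Wnt9b was listed in DKO alone, and with 20 kb 8 members had contacts in both lists and none in 1 alone. The pooled DKO/WT ratio lay between 0.807 and 0.991 over the settings run, inside its interval. Of 64 enrichments of single loops under other expected counts, 58 stayed within their interval and 6 moved. Contacts of 14 to 45 per pixel limit what could be detected.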
